A study of Sus scrofa with 6 samples.

Results

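EGR1, FOSL2, NR4A3, ZFP36, ATF3 and IER3 are genes of the immediate early and stress response, and they are 6 of the 6765 genes that the array annotation names by a single symbol. Their RNA was measured in left atrial tissue from 6 pigs, male animals of the Lanyu miniature breed aged 18 months, with 1 array per animal. All probe sets that carry 1 of these symbols alone in the array annotation were taken, which gave 9 of the 23999 probe sets that are not controls. EGR1 had 3 of them, NR4A3 had 2, and FOSL2, ZFP36, ATF3 and IER3 had 1 each. The MRV animals (n = 2) had a leaking mitral valve (mitral regurgitation), made by a hole of 2.8 mm in the posterior mitral leaflet. Valsartan, a blocker of the angiotensin receptor encoded by AGTR1, was given to them daily at 3.43 mg/kg, starting 1 week ahead of the operation, and they were killed 12 months after it. The MR animals (n = 2) had the same lesion and the same 12 months, without valsartan. The NC animals (n = 2) were normal controls of matched age for which no surgery is recorded, so regurgitation and the surgery that made it cannot be told apart in any difference from NC. All animals had a usual diet.

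Immediate early genes are switched on by transcription factors that already lie in the cell and need no new protein for it. Stretch, calcium entry and ligands such as angiotensin II act on them through MAP kinases, and most of their messenger RNAs are short-lived. EGR1 is a zinc finger transcription factor, FOSL2 a partner in AP-1 dimers, NR4A3 an orphan nuclear receptor and ATF3 a leucine zipper factor induced by many stresses. ZFP36 binds AU-rich elements in messenger RNAs and speeds their decay, and IER3 acts on cell survival and ERK signalling.

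The 6 genes were picked because earlier results on these same arrays had shown differences for them between the groups. Their group differences are therefore given as descriptions without a test, and nothing is read from how many of them differ. Values are deposited intensities on a linear scale. Differences are of log2(intensity + 16), with the moderated standard error (SE) of a limma fit to all 6 arrays. The fit took in only probe sets whose mean reached the 40th percentile, which was an intensity of 61.4. That left 8 of the 9 probe sets and 14400 in all. The second NR4A3 probe set fell below this limit. A lower intensity in a piece of atrium can mean fewer cells of a type or less RNA per cell, and arrays of whole tissue cannot tell these apart.

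The array medians lay between 90.2 and 93.4. NC1 stood apart: over the fitted probe sets, which are not independent replicates, it correlated with the other arrays at r = 0.954 to 0.975, against 0.967 to 0.983 among the other 5. Differences from NC that NC1 moved by more than 1.5 times are given with and without it for the 6 genes and for the list genes named below. Actin probe sets at the 3' and 5' ends gave a ratio, a sign of RNA degradation when high, of 2.30 and 1.87 in MRV, 1.44 and 1.70 in MR, and 1.61 and 1.91 in NC. The same ratio for GAPDH was 1.53 and 1.55 in MRV, 1.53 and 1.57 in MR, and 1.56 and 1.59 in NC. The control probe set for 28S ribosomal RNA varied more, with 341 and 559 in MRV, 187 and 280 in MR, and 117 and 468 in NC. Its relation to the 6 genes was not tested. Of 9 atrial muscle markers, 6 had a probe set with 1 symbol and all 6 passed the filter. MYL7, MYH6 and BMP10 were not analysed here. Of the neutrophil markers 0 of 4 measured passed the filter, and of the lymphocyte markers 1 of 6.

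**Figure D1:**
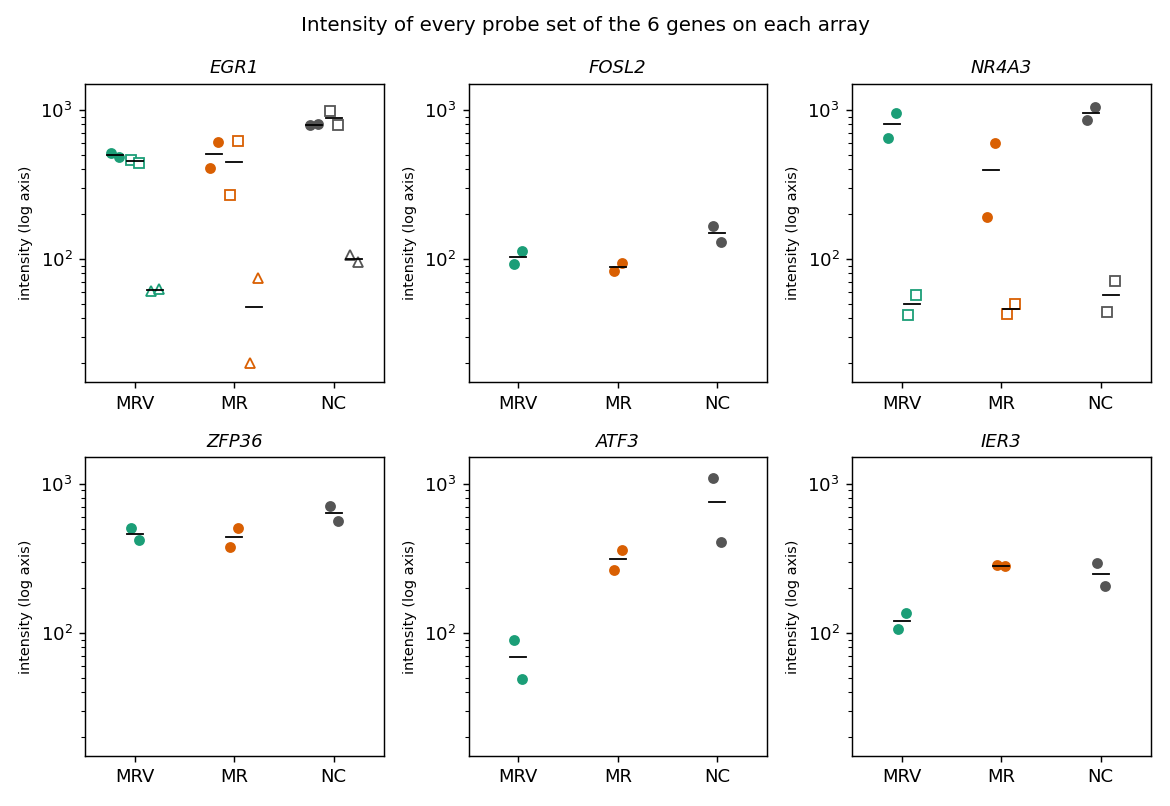
Intensity (log axis) of all 9 probe sets of the 6 genes, with 1 point per array and a line at the mean of each group of 2 arrays. Filled circles are the brightest probe set of a gene, open squares and triangles its other probe sets. EGR1, FOSL2 and ZFP36 lie higher in NC than in MRV and MR, NR4A3 is lowest in MR, and ATF3 and IER3 are lowest in MRV.

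EGR1, FOSL2 and ZFP36 shared 1 pattern, with both lesioned groups low and the controls high. The brightest EGR1 probe set had intensities of 517 and 482 in MRV, 407 and 605 in MR and 787 and 804 in NC. Every MRV and MR array lay below both NC arrays. The group means were 499.6 ± 25.2 in MRV, 506 ± 139.7 in MR and 795 ± 12.0 in NC (SD, n = 2 each). MRV and MR, neighbours in that order, differed by less than the spread within MR.

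The log2 difference of EGR1 was -0.66 for MR minus NC (SE 0.19), -0.65 for MRV minus NC and 0.0075 for MRV minus MR. Its second probe set had 464 and 441 in MRV, 271 and 623 in MR and 983 and 794 in NC. The dimmest EGR1 probe set had 61.0 and 63.1 in MRV, 20.2 and 74.5 in MR and 106 and 95.1 in NC. All 3 EGR1 probe sets thus kept MRV and MR below NC on every array, and all 3 were lowest in MR1. For MR minus NC the second probe set differed by -1.07 and the dimmest by -1.02, both further from 0 than the brightest. Without MR1, which was low in all 3, the brightest differed by -0.39.

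FOSL2 had intensities of 92.9 and 114 in MRV, 82.9 and 94.4 in MR and 168 and 130.2 in NC. MR was the lowest group and NC the highest, the MRV range overlapped that of MR, and neither lesioned group overlapped NC. Its log2 difference was -0.65 for MR minus NC (SE 0.16), -0.46 for MRV minus NC and 0.19 for MRV minus MR. Without NC1 the difference of MR from NC was -0.48, and that of MRV from NC was -0.30.

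ZFP36, which destabilizes the messenger RNAs of cytokines and of several early genes, had 500.4 and 422 in MRV, 375 and 505 in MR and 703 and 563 in NC. The MRV values fell inside the MR range, and both groups lay below NC. Its log2 difference was -0.52 for MR minus NC (SE 0.19), -0.44 for MRV minus NC and 0.075 for MRV minus MR. Leaving out MR1 made the first of these -0.31. Without NC1 it was -0.36, and MRV minus NC was -0.29.

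NR4A3 was low in MR alone. Its bright probe set had 648 and 949 in MRV, 190.4 and 599.8 in MR and 849 and 1052 in NC. The MRV and NC arrays interleaved, and the higher MR array lay just below the lower MRV array. Group means were 799 ± 213 in MRV, 395 ± 289 in MR and 950.5 ± 143 in NC (SD, n = 2 each), so MRV and NC did not differ beyond their spread.

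For NR4A3 the log2 difference was 1.17 for MRV minus MR, -1.43 for MR minus NC and -0.26 for MRV minus NC (SE 0.51 each). MR1 was far below the other arrays. Without MR1, MRV minus MR was 0.38 and MR minus NC was -0.64, and without MR2 they were 1.96 and -2.22. Without NC1, MRV minus NC was -0.42. With the actin ratio in the fit, NR4A3 differed by 0.61 for MRV minus MR, -1.21 for MR minus NC and -0.60 for MRV minus NC. The second NR4A3 probe set, below the filter, had 42.0 and 57.4 in MRV, 43.1 and 49.9 in MR and 44.2 and 71.2 in NC, with all 3 groups overlapping.

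ATF3 and IER3 were lowest in MRV. ATF3 had intensities of 89.1 and 49.0 in MRV, 265 and 357 in MR and 1099.5 and 409 in NC. No groups overlapped, and the order was MRV, MR, NC from low to high. The mean was 10.9-fold lower in MRV than in NC and 4.50-fold lower in MRV than in MR. NC spanned 2.69-fold between its 2 animals.

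The log2 difference of ATF3 was -1.97 for MRV minus MR, -3.06 for MRV minus NC and -1.09 for MR minus NC (SE 0.48 each). Without NC1 the differences from NC were -2.36 for MRV and -0.39 for MR, and without NC2 they were -3.75 and -1.79. Leaving out single MRV or MR arrays gave -2.32 to -1.62 for MRV minus MR. The actin ratio was higher in MRV than in MR. With it in the fit the difference of MRV from MR was -1.91.

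IER3 had 106 and 135 in MRV, 283 and 279 in MR and 293 and 205 in NC. Both MRV arrays lay below the other 4, while the MR values fell inside the NC range. MR and NC, the upper 2 groups, did not differ beyond the spread within NC. The log2 difference of IER3 was -1.13 for MRV minus MR, -0.94 for MRV minus NC and 0.19 for MR minus NC (SE 0.19 each). After adding the actin ratio to the fit, the differences of MRV were -0.71 from MR and -0.69 from NC. Without NC1, MRV minus NC was -0.70 and MR minus NC was 0.43. Without NC2 the sign of MR minus NC turned, to -0.057.

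**Figure D2:**
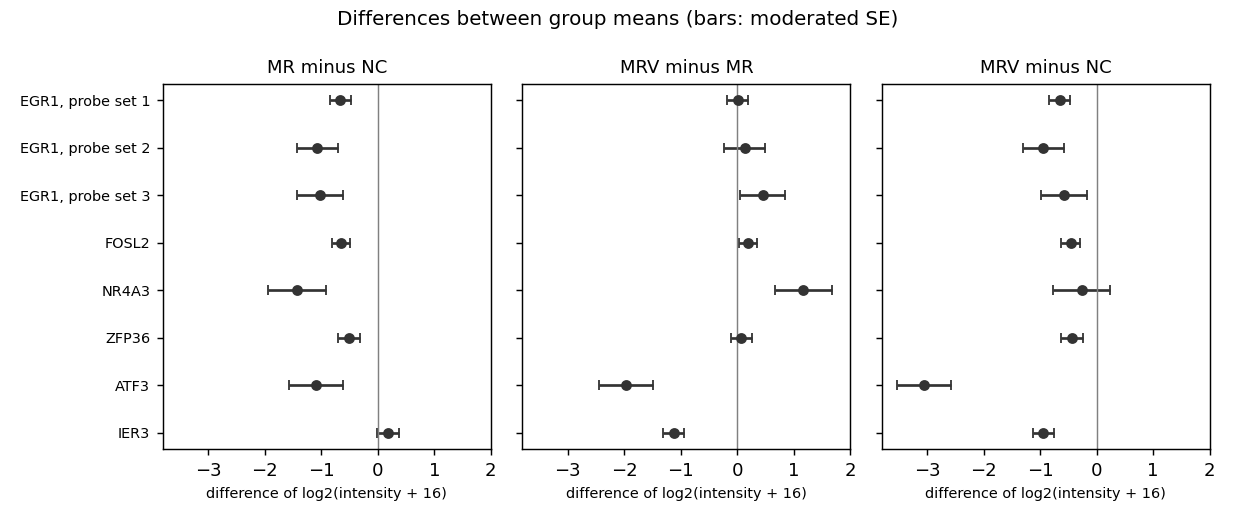
Differences between group means of log2(intensity + 16) for the 8 fitted probe sets, with the moderated SE as bars and 1 panel per comparison. All probe sets of EGR1, FOSL2 and ZFP36 lie below 0 in the panels that set MR or MRV against NC. In MRV minus MR they lie between 0.0075 and 0.45, the highest being the dimmest EGR1 probe set, while ATF3 reaches -3.06 in MRV minus NC.

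Counted over the 8 fitted probe sets, 7 were lower in MR than in NC without overlap, against 12.5% of all fitted probe sets. For MRV minus NC the count was 7, against 18.1%. For MRV minus MR, 2 were lower, against 23.6%, and 1 was higher, against 18.8%. These contrasts served to choose the genes. Without MR1, in a count added once the data were known, 6 of the 8 were lower in MRV than in MR, against 38.9% of all fitted probe sets with 1 array fewer. Without MR2 the lean was the other way, with 6 of the 8 higher and 2 lower, against 35.9% and 36.8%. The direction that depended on which MR array was kept was that of the 3 EGR1 probe sets and ZFP36. ATF3 and IER3 stayed lower and NR4A3 and FOSL2 higher by log2 difference without either MR array. After Benjamini-Hochberg adjustment over all fitted probe sets, limma called 0 of the 8 in each comparison. It called 1 probe set in all for MR minus NC (0.00694%), 0 for MRV minus MR (0%) and 0 for MRV minus NC (0%), while 579, 1048 and 762 had an unadjusted p under 0.05.

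The members differed from each other in how far apart the 2 animals of a group lay. In MR the higher array exceeded the lower by 3.15-fold for NR4A3, and 0.333% of all fitted probe sets were at least as far apart in MR. The 3 EGR1 probe sets were 1.49-fold, 2.30-fold and 3.69-fold apart there, a gap matched by 6.22%, 0.868% and 0.174%. IER3 was 1.01-fold apart in MR, and 92.2% of probe sets were as far apart. ATF3 was 1.82-fold apart in MRV and 2.69-fold in NC, gaps matched by 1.92% and 2.01%. In MRV the 3 EGR1 probe sets were 1.07-fold, 1.05-fold and 1.03-fold apart. In NC they were 1.02-fold, 1.24-fold and 1.11-fold apart, where the median over all fitted probe sets was 1.15-fold.

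**Figure D3:**
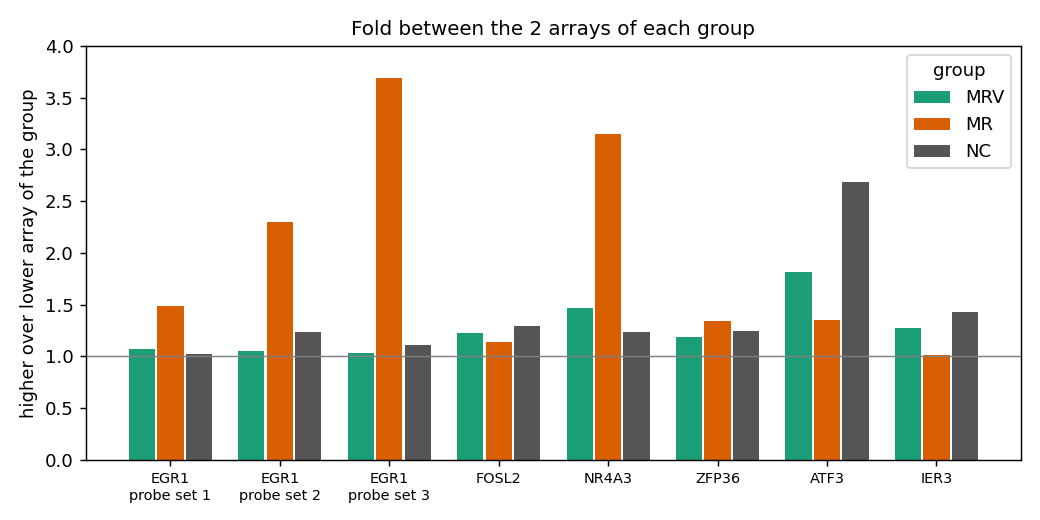
Intensity of the higher array over that of the lower array in each group, for the 8 fitted probe sets. A bar at 1 means that both animals read alike. The highest bars are those of MR for EGR1 and NR4A3 and that of NC for ATF3, at 2.69.

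By array, 4 of the 6 genes (EGR1, FOSL2, NR4A3 and ZFP36) had their lowest value of all 6 arrays in MR1, where 15.7% of the 5408 fitted genes did. NC1 held the highest value of 4 genes (FOSL2, ZFP36, ATF3 and IER3), and 26.4% of all fitted genes peaked there. EGR1 and NR4A3 peaked in NC2, as 11.6% of fitted genes did. ATF3 was lowest in MRV2 and IER3 in MRV1.

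Other immediate early transcription factors and IER genes followed these patterns only in part. Of 24 listed, 15 had a probe set with 1 symbol and 12 passed the filter. Limma called 0 of the 12 in each comparison (smallest adjusted p = 0.583 in MRV minus MR and 0.904 in MRV minus NC). An unadjusted p under 0.05 was seen for 1 in MR minus NC, 1 in MRV minus MR and 3 in MRV minus NC. FOSB, JUNB, JUND, EGR2, EGR3, NR4A1, KLF6, MAFF and SRF were not analysed here. FOSL1, EGR4 and KLF2 were below the filter.

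In MR minus NC, 8 of the 12 were lower, 4 of them without overlap, against 12.4% of all fitted genes. The median difference was -0.18, beside 0.0076 over all fitted genes. It was -0.03 without NC1 and -0.073 without MR1. FOS, the founding member of AP-1, had 585 and 263 in MRV, 160.5 and 574 in MR and 683 and 694 in NC. Like NR4A3 and EGR1 it was lowest in MR1, and like EGR1 it lay below NC on all 4 lesioned arrays (log2 difference -1.13 for MR minus NC, SE 0.61). Without MR1 that difference was -0.26, and without MR2 it was -2.00. KLF10, a factor induced by TGF-beta, had 501 and 816 in MRV, 278 and 321 in MR and 663 and 413 in NC, so it was lowest in MR as NR4A3 was. For MR minus NC it differed by -0.78, and by -0.45 without NC1. IER2 had 210.5 and 188 in MRV, 132 and 179 in MR and 249 and 182 in NC, with -0.43 for MR minus NC and -0.22 without NC1.

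In MRV minus MR, 4 of the 12 were lower and 4 higher without overlap, against 28.7% and 15% of all fitted genes. The median was 0.12, and -0.27 without MR1, beside -0.031 over all fitted genes. IER5, like IER3 named for an immediate early response, had 324 and 253 in MRV, 868 and 444 in MR and 1316 and 444 in NC. Its log2 difference was -1.08 for MRV minus MR (SE 0.55), with no overlap, as for IER3 and ATF3. BHLHE40, a repressor of the circadian clock, had 75.3 and 80.5 in MRV, 111 and 145 in MR and 153 and 84.8 in NC. MRV was again the lowest group, and MRV minus MR was -0.61. KLF10 had the opposite sign, at 1.06.

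In MRV minus NC, 8 of the 12 were lower, 4 of them without overlap, and 1 was higher without overlap, against 21.8% and 13.3% of all fitted genes. The list median was -0.28, and -0.069 without NC1, beside -0.023 over all fitted genes. IER5, FOS and MYC, the growth-promoting transcription factor, differed by -1.37, -0.78 and -0.56, and by -0.61, -0.79 and -0.34 without NC1. Without MRV2 the FOS difference was -0.23. MYC had 120.5 and 85.1 in MRV, 139.7 and 162 in MR and 185 and 133 in NC, so it was lowest in MRV.

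**Figure D4:**
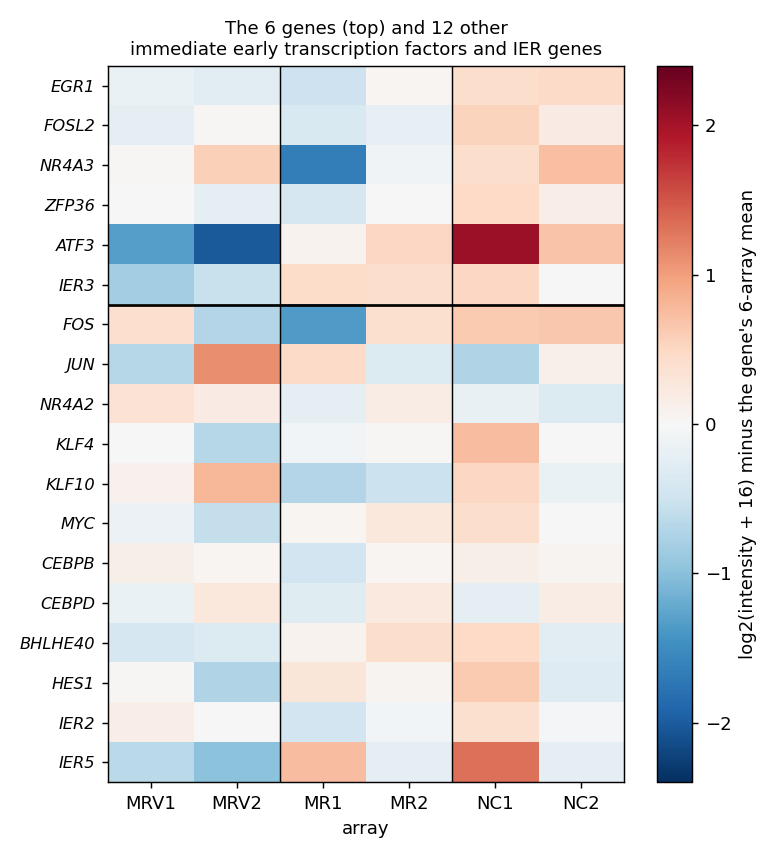
Log2(intensity + 16) minus the mean of the gene over the 6 arrays, for the brightest probe set of the 6 genes (above the line) and the 12 fitted genes of the immediate early list (below it). Red is above and blue below the mean. EGR1, FOSL2, NR4A3, ZFP36, FOS and KLF10 are below their means in MR1, and ATF3, IER3, BHLHE40 and IER5 are below theirs in both MRV arrays.

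Feedback regulators of the early response were listed together with other induced genes, such as the GADD45 growth arrest genes. Of 32 listed, 15 were measured and 14 passed the filter. Limma called 0 of the 14 in each comparison, and 1, 2 and 1 had an unadjusted p under 0.05, with MR minus NC given first and MRV minus NC last. Without overlap, 2 were lower and 2 higher in MR minus NC, against 12.4% and 15.7% of all fitted genes, and 4 were lower and 0 higher in MRV minus MR, against 28.7% and 15%. For MRV minus NC, 5 were lower and 0 higher without overlap, against 21.8% and 13.3%. List medians were 0.025 for MR minus NC, -0.13 for MRV minus MR and -0.082 for MRV minus NC.

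Of this list, GADD45G, a growth arrest gene, had 518 and 361 in MRV, 1171 and 1292 in MR and 1861 and 789 in NC. Like ATF3 it was lowest in MRV2 and highest in NC1, with -1.47 for MRV minus MR and -1.45 for MRV minus NC (-0.84 without NC1). Its relatives GADD45B and GADD45A differed by -0.31 for MRV minus MR and 0.24 for MR minus NC. RCAN1, which restrains calcineurin, had 521 and 565 in MRV, 941 and 1335 in MR and 674 and 669 in NC. It was highest in MR, with -1.03 for MRV minus MR (limma adjusted p = 0.386), 0.73 for MR minus NC and -0.30 for MRV minus NC. The ERK phosphatase gene DUSP6 had 183 and 164 in MRV, 197 and 174 in MR and 489.7 and 199.8 in NC, with NC1 far above the other 5 arrays. Its differences were -0.72 for MR minus NC and -0.80 for MRV minus NC, and -0.10 and -0.19 without NC1.

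Kinases and transcription factors that act upstream of the early genes were the next list. Of 27 listed, 13 were measured and 9 passed the filter. Limma called 0 of the 9 in each comparison, and 0, 1 and 2 had an unadjusted p under 0.05. The list medians were 0.050 for MR minus NC, -0.15 for MRV minus MR and -0.10 for MRV minus NC. In MR minus NC 4 were lower, PRKACA and MAPK14 without overlap, against 12.4% of all fitted genes. Their differences were -0.17 and -0.15, and -0.27 and -0.079 without NC1. In MRV minus MR 8 of 9 were lower, 3 of them without overlap, where 57.6% of all fitted genes were lower and 28.7% were so without overlap. The differences of these were -0.35 for MAP2K2, -0.23 for MAP2K4 and -0.22 for the p38 kinase gene MAPK14. In MRV minus NC 7 were lower, 4 of them without overlap, against 21.8%, with MAPK14 at -0.37 and MAP2K2 at -0.30. CREM, a regulator of cAMP-responsive genes, was higher by 0.45 without overlap, as 13.3% of all fitted genes were. It had 423.5 and 651 in MRV and 417 and 348 in NC, and the difference was 0.15 without MRV2.

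Among secreted and membrane products of the early response, 16 of 19 listed were measured and 11 passed the filter. Limma called 0 of the 11 in each comparison, and 3, 2 and 3 had an unadjusted p under 0.05. The list medians were -0.022 for MR minus NC, 0.062 for MRV minus MR and -0.0063 for MRV minus NC. CCN1, a matrix protein gene, had 154 and 116 in MRV, 435 and 269 in MR and 864 and 285 in NC, the same order of groups as for ATF3 except that MR and NC overlapped. Its log2 difference was -1.26 for MRV minus MR and -1.78 for MRV minus NC (-1.01 without NC1). F3, tissue factor, had 189 and 284 in MRV, 1099 and 882 in MR and 578 and 723 in NC. MRV was again the lowest group, with -2.01 for MRV minus MR (SE 0.23, limma adjusted p = 0.317), -1.42 for MRV minus NC and 0.59 for MR minus NC. THBS1 (thrombospondin) differed by -0.70 for MR minus NC and -0.92 for MRV minus NC, EDN1 (endothelin) by 0.53 for MR minus NC, and the chemokine gene CCL2 by 0.56 for MRV minus MR. The cytokine and prostaglandin genes IL6, CXCL8, LIF, AREG and PTGS2 were below the filter.

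The stress arm under ATF4, which raises amino acid synthesis genes when translation is curbed, contains genes that act upstream of ATF3. All 10 measured of 20 listed passed the filter. ASNS, asparagine synthetase, was the 1 gene called, and the 1 probe set called in all. It fell in MR, with 214 and 237 in MRV, 193 and 173 in MR and 779 and 852 in NC. The log2 difference was -2.06 for MR minus NC (limma adjusted p = 0.0466) and -1.79 for MRV minus NC (limma adjusted p = 0.0649). The call was lost without any single array. Its difference for MRV minus MR was 0.28, opposite in sign to that of ATF3. ATF4 had 1776 and 1578 in MRV, 2561 and 2305 in MR and 1912 and 2295 in NC. ATF4 was thus lowest in MRV, as ATF3 was, with a difference of -0.53 for MRV minus MR and 0.21 for MR minus NC (0.081 without NC1). PSAT1, of serine synthesis, differed by -0.58 for MR minus NC and -0.68 for MRV minus NC, and by -0.13 and -0.23 without NC1. CEBPG differed by -0.35 for MRV minus NC (-0.21 without NC1), and MTHFD2 by 0.19 for MRV minus MR. The list median was 0.0034 for MR minus NC, 0.036 for MRV minus MR and -0.071 for MRV minus NC.

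**Figure D5:**
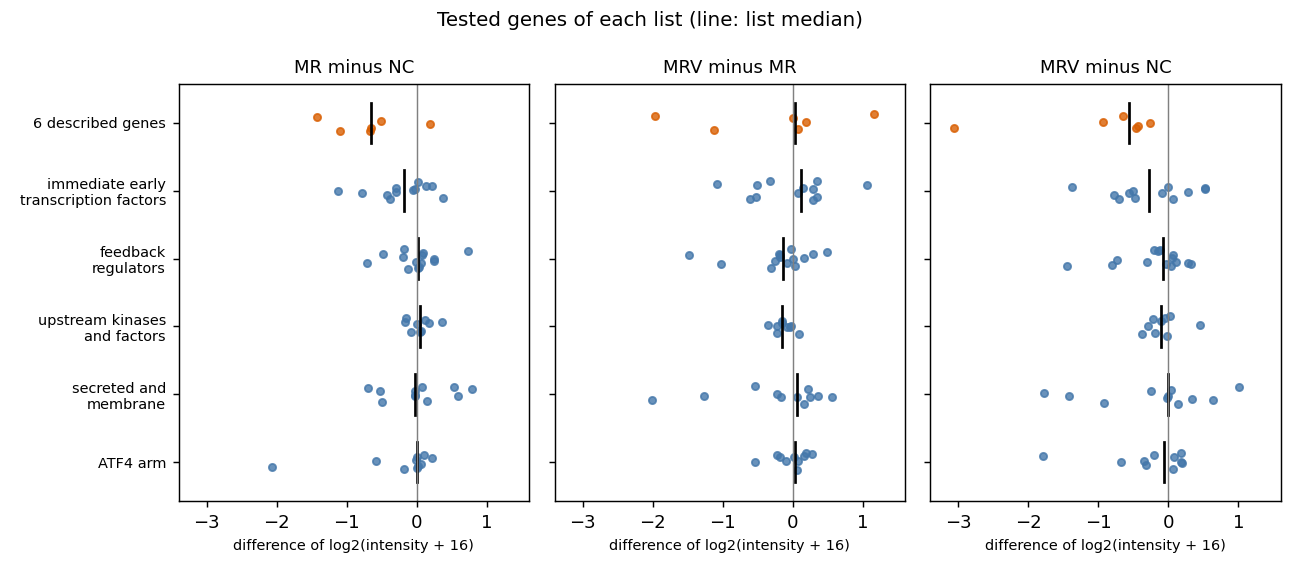
Differences of log2(intensity + 16) of the fitted genes of each list, 1 point per gene and a line at the list median, in the 3 comparisons. The medians of the 5 lists of other genes lie between -0.28 and 0.12, and single genes such as ASNS (-2.06 in MR minus NC) and F3 (-2.01 in MRV minus MR) lie far from them.

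Likeness to each gene was measured over the 6 arrays as the root mean square difference of log2 values, each centred on its own mean, among the 5407 other fitted genes. EGR1 was closest to ANTXR2 (0.10), TIAM2 (0.11) and AGTR1 (0.11), where the median over all genes was 0.37. ZFP36 was closest to PDLIM4 (0.081), MAOB (0.094) and AGTR1 (0.10), with a median of 0.30. AGTR1, the receptor that valsartan blocks, had 469 and 414 in MRV, 352 and 518 in MR and 599 and 588 in NC. All 4 lesioned arrays lay below both NC arrays, and MR1 was the lowest, as for EGR1 and ZFP36.

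FOSL2 was closest to ITGA5 (0.055), SERPINB1 (0.10) and ABHD5 (0.11), with a median of 0.32. ITGA5, an integrin chain, had 192 and 220.3 in MRV, 174 and 174 in MR and 326 and 246 in NC. NR4A3 was nearest to PITPNC1, FIBIN and RGS2 at 0.43, 0.44 and 0.49, against a median of 0.81. ATF3 was nearest to CCN1 (CYR61 in the annotation) at 0.62, SNAP25 at 0.63 and GADD45G at 0.68, against a median of 1.34. IER3 was nearest to STBD1, GLRX and MAP1A at 0.15, 0.18 and 0.18, against 0.52. Within the 6 genes, ZFP36 ranked 8 and FOSL2 35 in likeness to EGR1. ATF3 varied most among the 6, by a root mean square of 1.35 from its own mean, and the measure is not scaled for this. In likeness to IER3, ATF3 ranked 5338 of 5407, at 0.96 against a median of 0.52. In likeness to ATF3, where the median was 1.34, IER3 ranked 23, EGR1 132, ZFP36 222, FOSL2 376 and NR4A3 5242.

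Marker sums of some cell types moved with some of these differences. Those of atrial muscle, fibroblasts, smooth muscle with pericytes, and macrophages overlapped between the groups in every comparison. Single markers did not all follow the sums. Of 7 fitted smooth muscle and pericyte markers, 3 were lower and 1 higher in MRV than in MR without overlap, against 28.7% and 15% of all fitted genes. CNN1 had 489.5 and 527 in MRV, 902 and 805.5 in MR and 976 and 892 in NC, lowest in MRV as ATF3 and IER3 were. The endothelial sum was 3072.6 and 3404.8 in MRV and 3406.4 and 3690.5 in MR, so MRV2 and MR1 were nearly equal. It overlapped in the other comparisons. The erythrocyte sum was lower in MRV than in MR and NC. The 7 measured adipocyte markers summed to 2238 and 1254 in MRV, 2045 and 2532 in MR and 3814 and 2602 in NC, so both lesioned groups lay below NC, as for EGR1, FOSL2 and ZFP36. Of them 5 passed the filter, while the defining markers ADIPOQ and PPARG were below it. All 5 were lower in MR than in NC, 2 of them without overlap, against 47.4% and 12.4% of all fitted genes. In MRV minus NC 4 were lower and 1 higher, against 55.8% and 44.2%, and 3 were lower without overlap, against 21.8%. The 4 markers of Schwann cells and neurons summed to 1102 and 1801 in MRV, 3018 and 2786 in MR and 2141 and 2972 in NC, lowest in MRV as ATF3 and IER3 were. All 4 passed the filter and were lower in MRV than in MR, 3 of them without overlap, against 57.6% and 28.7% of all fitted genes. In MRV minus NC 3 were lower and 1 higher, against 55.8% and 44.2%. One of them, SNAP25, is among the nearest genes to ATF3, with 16.8 and 17.8 in MRV, 54.8 and 113 in MR and 428 and 39.3 in NC. The 3 ventricular muscle markers summed to 8702 and 9369 in MRV, 21364 and 12734 in MR and 8874 and 10454 in NC, highest in MR. MYL2 carried this sum, with 152 and 954 in MRV, 10693 and 2318 in MR and 203 and 325 in NC. MYL3 had 8476 and 8316 in MRV, 10583 and 10329 in MR and 8584 and 10061 in NC, and HEY2 overlapped between the groups. The part of these cells in the differences of the 6 genes was not tested.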

How the data were processed

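RNA of 6 left atria was measured with 1 porcine Affymetrix array per animal, 2 animals in each of MRV, MR and NC, grouped by the sample titles. Each deposited value is an intensity of 1 probe set on 1 array, linear in scale and between 4.8 and 27167, whose array medians are close. MAS5 and RMA are named, with no version, in the submitters' processing notes, and which of them the authors used for these values is not given. Precision is limited by having 6 arrays.

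Of 24123 probe sets, 124 controls were left out. The platform annotation gives 1 symbol for 10069 of the others, several for 198 and none for 13732. Entrez IDs of 9961 matched the RefSeq table of Sscrofa11.1, and 0 symbols changed. Log2(intensity + 16) was fitted with limma 3.58.1 in R 4.3.3 to all 6 arrays by group means (3 residual and 2.78 prior degrees of freedom), with Benjamini-Hochberg adjustment and a threshold of 0.05. Genes are led by their brightest probe set. The fit was tested on simulated data. Members and lists were chosen with earlier results of these data known. Named list genes are the up to 3 largest differences without overlap per list and comparison. Comparisons share arrays, so their values are not independent. Alternatives changed the pseudocount, filter, normalization, variance model, block, covariate and arrays. No coordinates are given, since the annotation names no build.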

Additional observations from a re-analysis of the deposited data

Results flagged for a closer look

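Beside its single FOSL2 probe set the array holds 4 probe sets that the annotation gives to FOSL2 and FRZB together, and none of these entered the comparisons. FRZB encodes a secreted antagonist of Wnt signalling. The brightest of the 4 had intensities of 739 and 1269.6 in MRV, 4944 and 3413 in MR and 1446 and 1675 in NC. Its mean in MR was 2.68 times that in NC, a signal above the controls in data that the comparisons leave out. The log2 difference was -2.07 for MRV minus MR (SE 0.30, limma adjusted p = 0.317) and 1.39 for MR minus NC, the opposite sign to FOSL2 in both. The others do not share this pattern. A second one had 124 and 182 in MRV, 59.1 and 119 in MR and 62.2 and 171 in NC. The next had 242 and 250 in MRV, 133 and 231 in MR and 134 and 269 in NC, so both were higher in MRV than in MR without overlap. The last was below the filter. Which gene each probe set reads was not tested.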

How the results depend on the processing

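Over 12 alternatives per gene and comparison, the difference of MR from NC kept its sign for EGR1, FOSL2, NR4A3, ZFP36 and ATF3, with IER3 at -0.057 without NC2. That of MRV from NC kept it for all 6 genes except NR4A3, which turned to 0.0061 without MRV1. Some of these alternatives cannot move a difference. They are the replicate block, leaving out an array of the group not compared, and the probe set mean for genes with a single probe set. ATF3, IER3, FOSL2 and NR4A3 kept the sign of MRV minus MR, though the actin ratio as a covariate moved NR4A3 to 0.61 and FOSL2 to 0.42. EGR1 and ZFP36, near 0 there, turned with the actin ratio as a covariate (-0.32 and -0.11), without MRV1 (-0.042 and -0.045) and without MR1 (-0.27 and -0.13). Without MR1 the EGR1 difference of MR from NC was -0.39, and without MR2 it was -0.94.

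The call of ASNS, 1 probe set for MR minus NC, became 0 with a pseudocount of 1, no filter, quantile normalization, an intensity trend, array weights, the actin covariate, a fit on MR and NC only, and the replicate block. Leaving out any of the 6 arrays gave 0 to 0. It stayed at 1 with a pseudocount of 64 and with the filter at the 60th percentile. The cause was not tested. For MRV minus MR, 2 probe sets without a single symbol were called with the replicate block, where 0 were without it. For MRV minus NC the count was 0 in all 16 alternatives. Replicate numbers are shared across groups only as numbers. Differences between replicates 1 and 2 correlated between groups at r = 0.34 (MR and NC), 0.20 (MRV and NC) and 0.019 (MRV and MR). The replicate block left every difference of the 6 genes as it was, since each group holds both numbers. With a pseudocount of 64 the ATF3 difference of MRV from NC was -2.50, and with a pseudocount of 1 it was -3.32. The array-by-array values of the list genes were added after the data had been examined.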

Other observations

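Several early response genes outside the 6 differed widely between the 2 animals of at least 1 group. Their values were known when they were picked. JUN, the main partner of FOS in AP-1, had 378 and 1358 in MRV, 855 and 489 in MR and 366 and 672 in NC, so the MRV animals differed 3.60-fold. CXCL2, a chemokine gene, had 325 and 73.6 in MRV, 79.8 and 219.6 in MR and 53.6 and 93.3 in NC. BTG2, an antiproliferative gene induced by p53, had 407 and 417 in MRV, 156 and 517 in MR and 187 and 565 in NC, with the first animal of MR and of NC low.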
